A study of Mus musculus with 8 samples.

Results

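Lung RNA of newborn and fetal mice was sequenced, and the genes described here are the ligands and receptors of the tumor necrosis factor (TNF) superfamily. They were chosen by symbol: Tnf, Lta, Ltb, Ltbr, and every gene whose symbol is Tnfsf or Tnfrsf followed by a number. This rule found 34 of the 25965 genes in the deposited values, 13 ligands and 21 receptors. Whole-lung total RNA came from Wfdc2+/+ mice and from Wfdc2GFP/GFP mice at a late embryonic stage (E18.5) and just after birth (P1.5), with 2 libraries in each of the 4 groups. Wfdc2GFP/GFP mice carry, on both alleles, a GFP cassette in the Wfdc2 locus that removes part of the first exon and the whole of the next one, and the study describes the Wfdc2+/+ mice as littermate controls. The study reports the locus as active in airway epithelium and in a part of the type II alveolar epithelial cells. The mutation is constitutive, so no cell type of the lung was targeted separately.

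The TNF superfamily is a set of cell-surface or shed ligands that act as trimers on a matching family of receptors. Receptors either recruit TRAF adaptors and switch on NF-kB, or carry a death domain that can lead to caspase activation, and several receptors do both. TNF itself is made mainly by macrophages and drives inflammation, lymphotoxins organize lymphoid tissue, and other pairs give costimulation to T cells or survival signals to B cells.

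The libraries differed before any comparison of members was made. The total behind each library ran from 19457647 to 37209332 reads, and 3 reads, taken as the floor of detection, stood for 0.0806 to 0.154 reads scaled to library size (RPM). Wfdc2 had 8038 to 32845 reads in Wfdc2+/+ libraries and 0 to 12 in Wfdc2GFP/GFP libraries. Replicate 1 of every group had 4121 to 90980 Xist reads and at most 3 Ddx3y reads, and replicate 2 had at most 13 Xist reads and 972 to 2175 Ddx3y reads, so that the replicate number also separates the sexes. Replicates also differed with transcript length. Among the 2765 genes with the greatest exonic length, the median difference in log2 RPKM, replicate 1 minus replicate 2, was 0.02 in E18.5 Wfdc2+/+, 0.71 in E18.5 Wfdc2GFP/GFP, −0.89 in P1.5 Wfdc2+/+ and −0.26 in P1.5 Wfdc2GFP/GFP. Among the 2768 genes with the least it was −0.14, −0.40, −0.16 and 0.22. E18.5 Wfdc2GFP/GFP replicate 1 and P1.5 Wfdc2+/+ replicate 1 thus stood furthest from their partners, so differences are also given within a replicate number, or without a library where that changes the call or the sign. The labelled tissue was checked against lung markers, and the summed level of 6 epithelial markers lay between 7994 and 76411 RPM. The lowest sum was that of E18.5 Wfdc2GFP/GFP replicate 1, while the other E18.5 libraries held 18201 to 23233 RPM.

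The 250 bases before the start of each gene were taken from RefSeq (GRCm38.p6), which held an entry for 28 of the 34 members. The windows of 4 members are shown because the results turn on them: Tnf as the namesake, Ltb and Tnfrsf12a as the ligand and the receptor that rose most between the stages in Wfdc2GFP/GFP lungs, and Tnfrsf25 as the receptor whose difference between genotypes had opposite signs at the 2 stages. Bases that GENCODE lists as exon were cut off, which left 182 bases for Ltb and 231 for Tnfrsf12a. Capitals mark a TATA match (TATAAA, on the gene's strand) or a match to the NF-kB consensus (both strands), with no overlap between the 2 kinds in these windows. The lines give the coordinates on the same build and the strand.
Tnf, chr17:35202008-35202257, minus strand: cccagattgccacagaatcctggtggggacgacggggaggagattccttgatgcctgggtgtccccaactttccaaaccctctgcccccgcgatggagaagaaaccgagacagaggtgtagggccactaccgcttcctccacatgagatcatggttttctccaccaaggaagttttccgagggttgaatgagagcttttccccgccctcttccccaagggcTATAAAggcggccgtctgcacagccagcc
Ltb, chr17:35194257-35194438, plus strand: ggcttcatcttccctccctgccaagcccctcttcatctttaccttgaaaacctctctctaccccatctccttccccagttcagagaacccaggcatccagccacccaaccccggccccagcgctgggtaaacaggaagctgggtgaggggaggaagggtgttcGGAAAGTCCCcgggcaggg
Tnfrsf12a, chr17:23677469-23677699, minus strand: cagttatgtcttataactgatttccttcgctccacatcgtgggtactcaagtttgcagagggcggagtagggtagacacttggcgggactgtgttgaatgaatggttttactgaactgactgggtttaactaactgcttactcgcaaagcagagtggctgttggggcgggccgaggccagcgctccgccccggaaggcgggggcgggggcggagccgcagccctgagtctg
Tnfrsf25, chr4:152115684-152115933, plus strand: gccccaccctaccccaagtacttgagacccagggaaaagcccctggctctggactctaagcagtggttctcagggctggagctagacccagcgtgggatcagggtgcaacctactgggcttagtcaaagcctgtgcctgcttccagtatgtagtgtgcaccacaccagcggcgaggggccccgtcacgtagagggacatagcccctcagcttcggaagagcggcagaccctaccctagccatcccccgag
The TATA match of Tnf begins 29 bases before its start, and the NF-kB match of Ltb begins 87 bases before the RefSeq start. Tnfrsf12a and Tnfrsf25 held neither match in these windows. The 28 members have 32 whole 250-base windows, since some have a second start. Of these windows, 3 held an NF-kB consensus match (Ltb, Tnfrsf8 and a second start of Tnfrsf9), beside 3.90% of the 32851 promoter windows of the genome. TATAAA was in 4 of them (Tnf, Lta, Tnfrsf17 and Tnfsf18), beside 7.59%. A match is a stretch of letters and not a measured binding site.

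Tnf (chromosome 17, 35199381 to 35202007, mm10), Lta (35203165 to 35205351) and Ltb (35194439 to 35196320) lie side by side on chromosome 17. Tnfrsf12a is on the same chromosome (23675447 to 23677449), and Tnfrsf25 (152115934 to 152120119), Tnfrsf9 (150914562 to 150946102), Tnfrsf4 (156013843 to 156016612) and Tnfrsf18 (156026164 to 156028895) are on chromosome 4. The deposited values divide reads by the whole span of a gene, introns included, so levels are compared between genes here as RPM per exonic kilobase, and between groups as deposited log2 RPKM.

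The most abundant members were receptors. Ltbr, the receptor of lymphotoxin alpha-beta, averaged 50.6 RPM per exonic kilobase over the 4 groups, and Tnfrsf1a, the widely expressed death-domain receptor of TNF, averaged 48.8. Tnfrsf12a, the receptor of TWEAK, followed at 17.1, then Tnfrsf21 (the death receptor DR6) at 14.2 and Tnfrsf19 (TROY, an orphan-type receptor) at 10.8. Neighbours in this order overlapped over their libraries, with Ltbr between 26.5 and 68.9 and Tnfrsf1a between 25.2 and 68.9. The most abundant ligands were Tnfsf13 (APRIL, a B cell survival factor) at 8.96 and Tnfsf10 (TRAIL, a death ligand) at 5.38. Tnf averaged 0.606 and Ltb 3.25 on the same scale, so the receptors of both ligands stood far above the ligands themselves, and Tnfrsf1b, the inducible TNF receptor of blood and endothelial cells, stood at 3.78. Reads of Tnfsf13 cannot be told apart from those of Tnfsfm13, with which it shares 983 exonic bases.

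**Figure D1:**
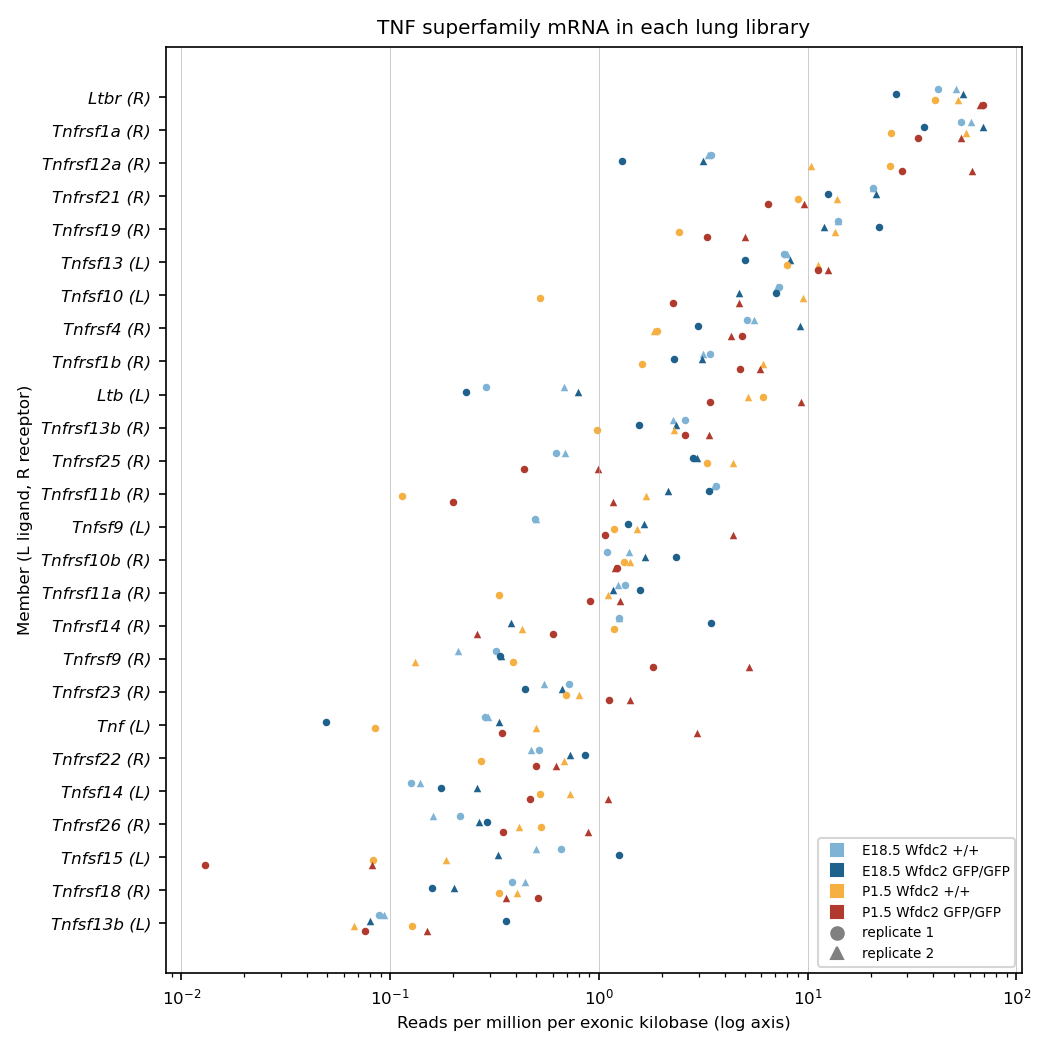
Level of the 26 members with a mean of at least 10 reads, in RPM per exonic kilobase on a log axis, with 1 point per library, colored by group and shaped by replicate. The receptors Ltbr and Tnfrsf1a lead in 3 groups, Tnfrsf12a stands beside Tnfrsf1a in P1.5 Wfdc2GFP/GFP, and Tnfrsf9, Tnf, Ltb and Tnfrsf12a spread over more than 1 order of magnitude between libraries.

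Of the 34 members, 27 averaged 0.05 RPKM or more and were tested, 8 ligands and 19 receptors. The other 7 (Tnfrsf8, Tnfrsf17, Tnfsf4, Tnfsf8, Tnfsf11, Tnfsf13b and Tnfsf18) were not tested. Every contrast was tested with limma on the deposited log2 RPKM of 15627 genes, with Benjamini-Hochberg adjustment, and a gene was called at an adjusted p under 0.05. An exact permutation test of 2 libraries against 2 has 0.333 as its smallest two-sided p and was not run. Nothing states whether the libraries of a group came from separate animals beyond the sex-linked reads above, so p-values measure the spread between these libraries. In whole lung, fewer cells of a type and less RNA per cell cannot be told apart.

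The comparison of genotypes at P1.5 asks how these genes differ after birth when Wfdc2 is missing. No member was called by limma, where 0.0128% of all genes tested were. At an unadjusted p under 0.05, 3 members were higher in Wfdc2GFP/GFP (Tnfrsf9, Tnfrsf12a and Tnfrsf4) and 1 was lower (Tnfrsf25), beside 3.61% and 7.33% of all genes. Of the 27 members, 20 had a positive and 7 a negative log2 fold change, with a median of 0.37, while 38.8% of all genes were positive and their median was −0.20. The sign of the member median rests on single libraries, since it was −0.16 without Wfdc2GFP/GFP replicate 2 and −0.0060 without Wfdc2+/+ replicate 1. The 8 ligands had a median of 0.44 and the 19 receptors of 0.37.

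Tnfrsf9 encodes 4-1BB (CD137), a costimulatory receptor of activated T and natural killer cells. At P1.5 it had 1.06 and 0.360 RPM in Wfdc2+/+ replicates 1 and 2, and 4.92 and 14.3 RPM in Wfdc2GFP/GFP replicates 1 and 2. Both Wfdc2GFP/GFP libraries lay above both Wfdc2+/+ libraries, and above all 4 libraries of E18.5, which held 0.577 to 0.923 RPM. Its log2 RPKM was −5.68 ± 1.10 in Wfdc2+/+ and −1.91 ± 1.08 in Wfdc2GFP/GFP (SD, n = 2), a log2 fold change of 3.76 (standard error, SE, 0.72, adjusted p in limma = 0.208). Within replicate 1 the difference was 2.22 and within replicate 2 it was 5.31. Only the P1.5 Wfdc2GFP/GFP libraries held more than 0.05 RPKM of Tnfrsf9, so it met the limit for testing through the group where it was high. Its contrasts with this group are therefore not independent of that limit. At these low RPKM values the log2 fold change was 1.62 with a pseudocount of 0.1 RPKM and 0.34 with one of 1 RPKM. Tnfrsf9 lies inside the span of Camta1 on the opposite strand, without shared exonic bases, and whether the counting used strand is not given in the sources used here. Camta1 had a log2 fold change of 0.21 (SE 0.38).

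Tnfrsf4 encodes OX40, another costimulatory receptor of activated T cells. Its P1.5 levels were 2.58 and 2.52 RPM in Wfdc2+/+ and 6.61 and 5.84 RPM in Wfdc2GFP/GFP, and the genotypes did not overlap. The log2 fold change was 1.29 (SE 0.50, adjusted p in limma = 0.414), and it was 1.36 within replicate 1 and 1.21 within replicate 2. Its ligand gene Tnfsf4 had no read in any library, and Tnfsf9, the ligand gene of 4-1BB, had 1.52 and 1.95 RPM in Wfdc2+/+ and 1.38 and 5.67 RPM in Wfdc2GFP/GFP. The 9 T cell markers together held 3.87 and 10.1 RPM in Wfdc2+/+ and 8.505 and 12.2 RPM in Wfdc2GFP/GFP, which overlapped, with 1 of the 9 genes at 0 in both Wfdc2GFP/GFP libraries, and their part in the levels of Tnfrsf9 and Tnfrsf4 was not tested.

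Tnfrsf12a encodes Fn14, a small receptor induced by growth factors and injury in epithelium and mesenchyme. It had 48.1 and 20.1 RPM in Wfdc2+/+ and 54.7 and 119 RPM in Wfdc2GFP/GFP at P1.5, the highest levels of any library being those of Wfdc2GFP/GFP. The log2 fold change was 1.37 (SE 0.59, adjusted p in limma = 0.456). It came mostly from the second pair of libraries, with a difference of 0.19 within replicate 1 and 2.56 within replicate 2.

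Tnfrsf25 encodes DR3, a death-domain receptor of T cells whose ligand is TL1A, the product of Tnfsf15. It was the only tested member that was lower in Wfdc2GFP/GFP at P1.5 at an unadjusted p under 0.05, with 7.51 and 9.97 RPM in Wfdc2+/+ and 0.993 and 2.26 RPM in Wfdc2GFP/GFP. The genotypes were far from overlapping. The log2 RPKM was 1.047 ± 0.29 in Wfdc2+/+ and −1.48 ± 0.84 in Wfdc2GFP/GFP (SD, n = 2), a log2 fold change of −2.53 (SE 0.44, adjusted p in limma = 0.152). Within replicates 1 and 2 the difference was −2.92 and −2.14. Tnfsf15 had 0.276 and 0.617 RPM in Wfdc2+/+ and 0.0432 and 0.273 RPM in Wfdc2GFP/GFP, where the last value is 8 reads and the one before is 1 read.

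Tnf, the founding cytokine of the family, had 3 and 16 reads at P1.5 in Wfdc2+/+ and 13 and 142 reads in Wfdc2GFP/GFP, which is 0.138, 0.822, 0.561 and 4.85 RPM. Wfdc2GFP/GFP replicate 2 stood alone, and the other Wfdc2GFP/GFP library lay between the Wfdc2+/+ libraries. The log2 fold change was 2.29 (SE 1.29, adjusted p in limma = 0.569), and it was 0.74 without Wfdc2GFP/GFP replicate 2. Within replicate 1 the difference was 2.02 and within replicate 2 it was 2.56, so each Wfdc2GFP/GFP library was above the Wfdc2+/+ library of its own number. Ltb, which encodes the membrane anchor of the lymphotoxin heterotrimer, had 9.26 and 7.86 RPM in Wfdc2+/+ and 5.18 and 14.0 RPM in Wfdc2GFP/GFP. Its genotypes overlapped fully, with both means at a log2 RPKM of 2.18 and a SE of 0.72 on their difference.

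The receptors of these ligands were not called either. Tnfrsf1a had 65.3 and 147.9 RPM in Wfdc2+/+ and 87.2 and 140.3 RPM in Wfdc2GFP/GFP, with a log2 fold change of 0.17 (SE 0.49, adjusted p in limma = 0.909). Tnfrsf1b had 6.12 and 23.3 RPM against 18.0 and 22.5 RPM, with a log2 fold change of 0.75 (SE 0.61, adjusted p in limma = 0.707), which was −0.05 with the replicate 2 libraries alone at P1.5. Ltbr had 96.3 and 123.5 RPM against 162.3 and 157.4 RPM, with no overlap, and a log2 fold change of 0.55 (SE 0.39, adjusted p in limma = 0.656).

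**Figure D2:**
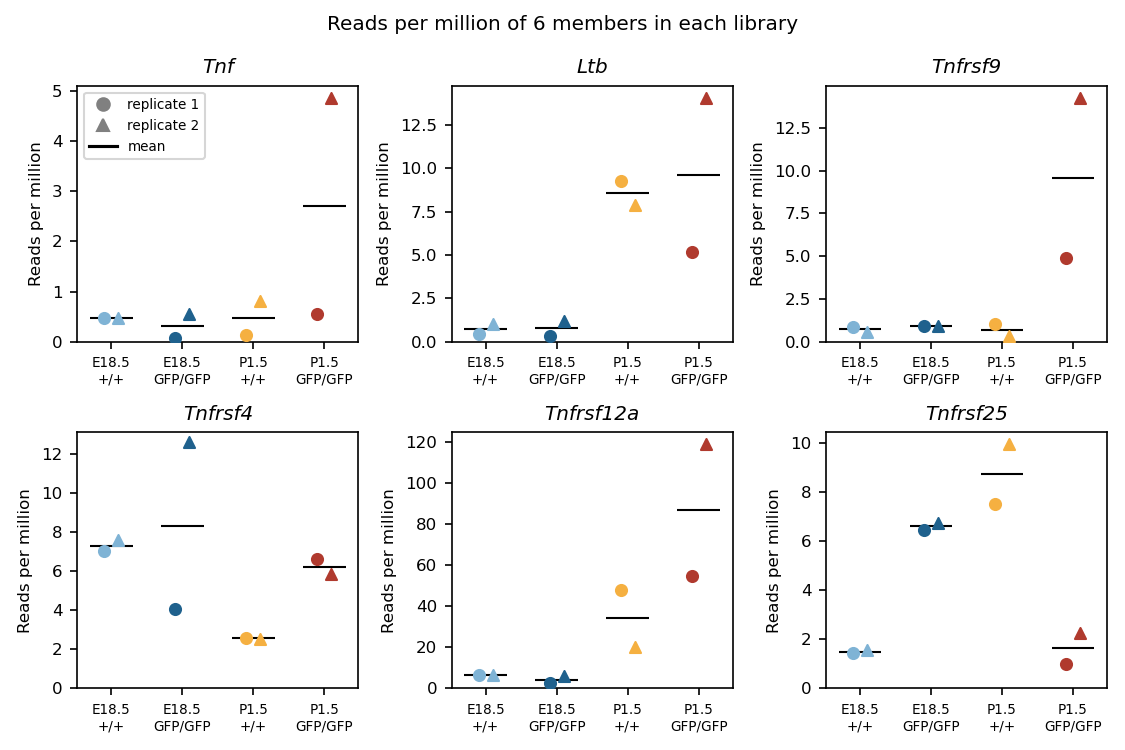
RPM of 6 members in each library by group, with points shaped by replicate and a bar at the mean of the 2 libraries. Tnfrsf9 is high in the 2 P1.5 Wfdc2GFP/GFP libraries, Tnf in 1 of them, Ltb at P1.5 in both genotypes, and Tnfrsf25 in E18.5 Wfdc2GFP/GFP and P1.5 Wfdc2+/+.

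Across the 27 tested members, 12 had their highest log2 RPKM in 1 library, P1.5 Wfdc2GFP/GFP replicate 2, among them 6 of the 8 ligands. Of all genes tested, 12.7% peaked in that library. The members that peaked there include Tnf, Lta, Ltb, Tnfsf9, Tnfrsf9 and Tnfrsf12a, while Tnfrsf25 and Tnfsf15 did not. Summed markers of macrophages and monocytes were 170 and 241 RPM in P1.5 Wfdc2GFP/GFP replicates 1 and 2 and 130 and 214 RPM in Wfdc2+/+, neutrophil markers were 1388 and 906 RPM against 1798 and 646 RPM, and B cell markers were 34.5 and 53.8 RPM against 16.7 and 39.7 RPM. These 3 sums overlapped between genotypes, each with all of its found genes above 0 reads in at least 1 library of the group. The sum of the 4 endothelial markers did not overlap, with 1027 and 1571 RPM in Wfdc2+/+ and 1719 and 1729 RPM in Wfdc2GFP/GFP. Of its genes only Cldn5 stood apart, with 13894 and 7848 reads in Wfdc2+/+ and 25886 and 23584 in Wfdc2GFP/GFP. Pecam1, Cdh5 and Kdr overlapped between genotypes. The part of these cells in the members' levels was not tested.

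At E18.5, before breathing starts, no member was called by limma between genotypes, where 0.0192% of all genes were. At an unadjusted p under 0.05, 2 members were higher in Wfdc2GFP/GFP (Tnfrsf25 and Tnfsf9) and 1 was lower (Tnfrsf18), beside 3.78% and 0.595% of all genes. The median log2 fold change was −0.05 over the members (0.16 without Wfdc2GFP/GFP replicate 1) and 0.09 over all genes. Summed macrophage and monocyte markers were 169 and 162 RPM in E18.5 Wfdc2+/+ and 121.5 and 139.8 RPM in E18.5 Wfdc2GFP/GFP, neutrophil markers 96.3 and 93.4 RPM against 57.4 and 65.3 RPM, and natural killer and innate lymphoid markers 2.59 and 1.57 RPM against 0.941 and 1.20 RPM. These 3 sums were lower in Wfdc2GFP/GFP without overlap. Of the macrophage and monocyte genes, Emr1, Mrc1, Ly6c2 and Ccr2 were lower without overlap, and Csf1r, Cd68, Marco and Fcgr1 overlapped. All 8 neutrophil genes had a negative log2 fold change. The natural killer sum in Wfdc2+/+ came mostly from Gzma, with 59 and 29 reads against 3 and 21, and its other genes had at most 14 reads in an E18.5 library. T cell markers were 3.892 and 3.593 RPM in E18.5 Wfdc2+/+ and 5.563 and 3.898 RPM in E18.5 Wfdc2GFP/GFP. Thymocyte markers were 0.145 and 0.128 RPM against 1.10 and 0.342 RPM. Both of these sums were higher in Wfdc2GFP/GFP without overlap, that of T cells narrowly. Lck held the most T cell marker reads, with 72 and 52 against 105 and 76. Cd4 was also higher, Cd3g was lower (6 and 6 reads against 1 and 0), and the other genes of this list overlapped or had no reads. The thymocyte sum rests on few reads, with 1 and 0 against 23 and 3 for Rag1 and 3 and 3 against 17 and 6 for Rag2. The other marker sums overlapped between genotypes. The part of all these cells in the members' levels was not tested.

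Tnfrsf25 stood the other way round before birth. It had 1.42 and 1.57 RPM in Wfdc2+/+ and 6.45 and 6.74 RPM in Wfdc2GFP/GFP, with close replicates and no overlap. The log2 RPKM was −1.48 ± 0.10 and 0.66 ± 0.04 (SD, n = 2), a log2 fold change of 2.14 (SE 0.44, adjusted p in limma = 0.436). It was 2.18 within replicate 1 and 2.099 within replicate 2.

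Tnfsf9 had 0.639 and 0.642 RPM in E18.5 Wfdc2+/+ and 1.77 and 2.12 RPM in Wfdc2GFP/GFP, again without overlap, and its log2 fold change was 1.60 (SE 0.61, adjusted p in limma = 0.9998). It shares 192 exonic bases with an antisense transcript, Gm11110. Tnfrsf18, which encodes the costimulatory receptor GITR, had 20 and 21 reads in Wfdc2+/+ and 9 and 9 reads in Wfdc2GFP/GFP, and its log2 fold change was −1.20 (SE 0.42, adjusted p in limma = 0.918). It shares 414 exonic bases with an antisense transcript, Gm16008.

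Tnf had 16 and 15 reads in E18.5 Wfdc2+/+ and 3 and 16 reads in Wfdc2GFP/GFP, a log2 fold change of −1.17 (SE 1.29) that became 0.21 without Wfdc2GFP/GFP replicate 1. Ltb had 15 and 32 reads against 13 and 35 reads, and both genotypes spanned the same range, with a log2 fold change of −0.05 (SE 0.72). The log2 fold changes of the receptors Tnfrsf1a, Tnfrsf1b and Ltbr were −0.20, −0.30 and −0.28, each smaller than its SE of 0.49, 0.61 and 0.39. Without Wfdc2GFP/GFP replicate 1 those of Tnfrsf1a and Ltbr turned to 0.27 and 0.25.

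**Figure D3:**
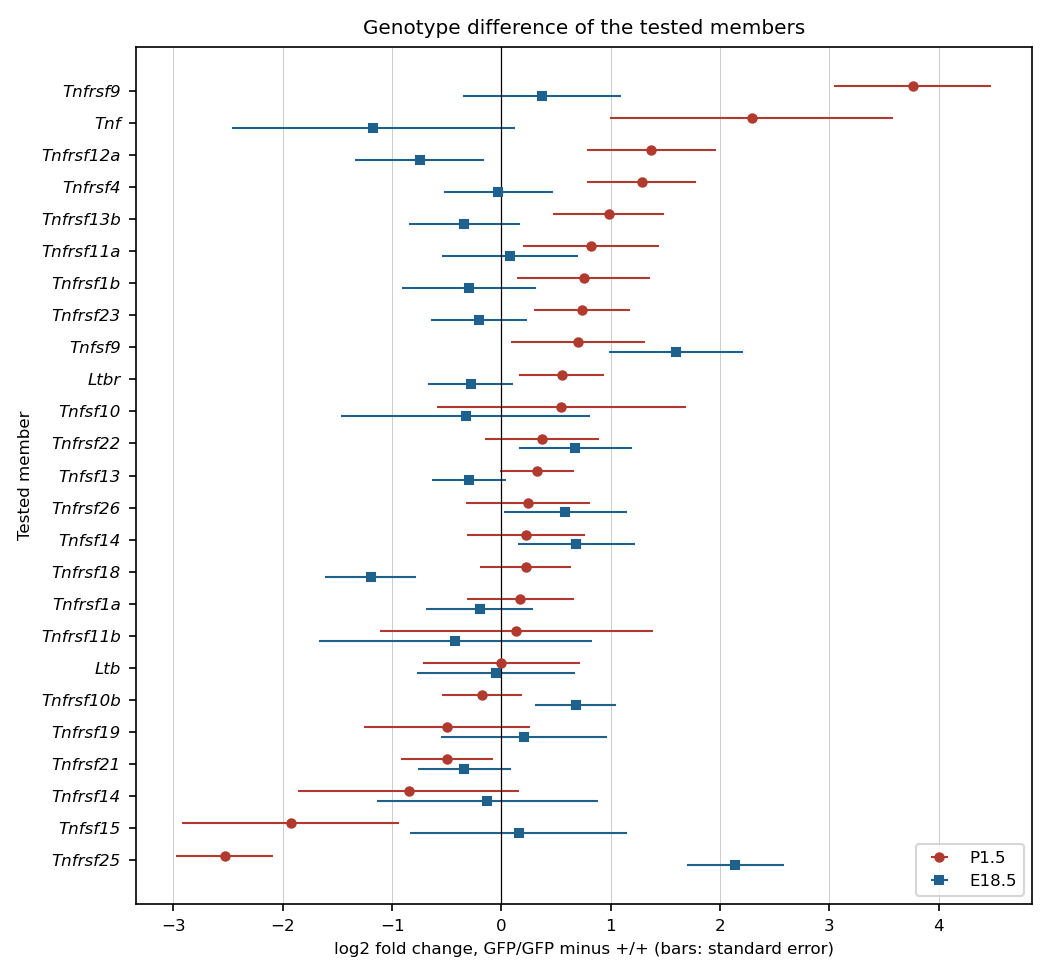
Log2 fold change of 25 tested members (the 2 with a mean under 10 reads left out), Wfdc2GFP/GFP minus Wfdc2+/+, at P1.5 (red circles) and E18.5 (blue squares), with SEs from limma. Tnfrsf9 is at 3.76 at P1.5 and 0.37 at E18.5, and Tnfrsf25 at −2.53 and 2.14.

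The difference between the genotype contrasts of both stages was tested in the same limma fit. No member and no other gene was called (0%), and 3 members had a higher contrast at P1.5 at an unadjusted p under 0.05 and 1 a lower one, beside 2.18% and 8.06% of all genes. The median difference was 0.37 over the members and −0.33 over all genes, and the member median was −0.17 without P1.5 Wfdc2+/+ replicate 1 and −0.12 without P1.5 Wfdc2GFP/GFP replicate 2. For Tnfrsf25 it was −4.67 (SE 0.63, adjusted p in limma = 0.141), and it ranged from −5.26 to −4.08 with 1 library left out and was −2.08 with a pseudocount of 1 RPKM. Tnfrsf25 ranked 6 among the 15627 genes by unadjusted p. For Tnfrsf9 the difference was 3.39 (SE 1.02, adjusted p in limma = 0.323), for Tnfrsf12a 2.12 (SE 0.84, adjusted p in limma = 0.447) and for Tnfrsf18 1.42 (SE 0.59, adjusted p in limma = 0.469).

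The difference for Tnf was 3.46 with a SE of 1.83 (adjusted p in limma = 0.573), and that for Ltb was 0.05 (SE 1.02, adjusted p in limma = 0.989). Those of Tnfrsf1a, Tnfrsf1b and Ltbr were 0.37 (SE 0.69), 1.049 (SE 0.87) and 0.83 (SE 0.55). None of these 5 genes passed the unadjusted threshold.

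In 3 of the 27 members (Tnfrsf25, Tnfrsf12a and Tnfrsf10b) the libraries of the genotypes did not overlap at either stage and stood in opposite orders, beside 9.92% of all genes tested. Espn, which lies 211 bases from Tnfrsf25 on the opposite strand, followed the same pattern. Espn had 80 and 86 reads in E18.5 Wfdc2+/+ and 247 and 176 in E18.5 Wfdc2GFP/GFP, then 152 and 87 in P1.5 Wfdc2+/+ and 71 and 30 in P1.5 Wfdc2GFP/GFP. Its difference of contrasts was −2.98 (SE 0.84, adjusted p in limma = 0.295). Plekhg5, 533 bases from Tnfrsf25 on the same strand, had a difference of −0.98 (SE 0.55, adjusted p in limma = 0.600). The part of reads from the neighbours in the level of Tnfrsf25 was not tested.

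The comparison of P1.5 with E18.5 within a genotype asks which members change around birth. In Wfdc2+/+ lungs no member was called by limma, where 0.0576% of all genes were. At an unadjusted p under 0.05, 8 members were higher at P1.5 and 2 were lower, beside 6.9% and 4.93% of all genes. Lta and Tnfrsf13c, among these 8, had at most 3 reads in each E18.5 Wfdc2+/+ library. The median log2 fold change was −0.16 over the members (0.37 without P1.5 replicate 1 and 0.10 under median centring) and −0.15 over all genes, and the 8 ligands and 19 receptors had medians of 0.85 and −0.19.

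Ltb had 0.436 and 1.03 RPM in Wfdc2+/+ lungs at E18.5 and 9.26 and 7.86 RPM at P1.5. The stages were well apart, and its log2 fold change of 3.67 (SE 0.72, adjusted p in limma = 0.120) was the highest of the tested members in this genotype. Tnfrsf25 went from 1.42 and 1.57 RPM to 7.51 and 9.97 RPM, with a log2 fold change of 2.53 (SE 0.44, adjusted p in limma = 0.0901). Tnfrsf12a went from 6.65 and 6.45 RPM to 48.1 and 20.1 RPM, with a log2 fold change of 2.25 (SE 0.59, adjusted p in limma = 0.231). For each of these 3 genes both P1.5 libraries lay above both E18.5 libraries, as they did for 27.4% of all genes tested. The rule that named Tnfrsf25 and Tnfrsf12a here required this order.

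The 2 members lower at P1.5 in Wfdc2+/+ lungs were Tnfrsf11b, which encodes osteoprotegerin, a secreted decoy receptor, and Tnfrsf4. Tnfrsf11b had 10.3 and 10.01 RPM at E18.5 and 0.322 and 4.73 RPM at P1.5. Its P1.5 libraries disagreed widely, and the log2 fold change of −3.04 (SE 1.25, adjusted p in limma = 0.418) was −1.10 without P1.5 replicate 1. Tnfrsf4 had 241 and 236 reads at E18.5 and 56 and 49 reads at P1.5, close within each stage, with a log2 fold change of −1.51 (SE 0.50, adjusted p in limma = 0.349).

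For Tnf the stage difference in Wfdc2+/+ was −0.49 (SE 1.29), with 0.465 and 0.481 RPM at E18.5 around and between the P1.5 values of 0.138 and 0.822, and it was 0.80 without P1.5 replicate 1. Those of Tnfrsf1a, Tnfrsf1b and Ltbr were −0.60 (SE 0.49), −0.06 (SE 0.61) and −0.01 (SE 0.39). The last 2 changed sign under median centring, to 0.20 and 0.26.

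In Wfdc2GFP/GFP lungs, 3 members were called between the stages by limma, beside 4.55% of all genes. Tnfrsf12a and Ltb rose from E18.5 to P1.5 and Tnfrsf25 fell. At an unadjusted p under 0.05, 8 members were higher and 4 lower at P1.5, beside 9.61% and 26% of all genes, and the median log2 fold change was 0.62 over the members and −0.46 over all genes. The member median was −0.20 when only genes averaging 0.5 RPKM or more were kept, 0.14 with a pseudocount of 1 RPKM and 1.30 under median centring. The 8 ligands had a median of 1.32 and the 19 receptors of −0.20.

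Tnfrsf12a rose from 2.50 and 6.09 RPM at E18.5 to 54.7 and 119 RPM at P1.5, by 4.37 on the log2 scale (SE 0.59, adjusted p in limma = 0.0210). Its log2 RPKM was 0.96 ± 0.91 before and 5.33 ± 0.79 after birth (SD, n = 2), and the stages did not overlap. Ltb rose from 0.349 and 1.20 RPM to 5.18 and 14.0 RPM, by 3.72 (SE 0.72, adjusted p in limma = 0.0427), also without overlap. Tnfrsf25 fell from 6.45 and 6.74 RPM to 0.993 and 2.26 RPM, a log2 fold change of −2.14 (SE 0.44, adjusted p in limma = 0.0461), the sign opposite to that in Wfdc2+/+ lungs. The stage contrasts of the genotypes share no library, but each shares its libraries with the genotype contrasts. The difference of these 2 stage contrasts is the same −4.67 as that of the genotype contrasts.

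These calls depended on single libraries. The call of Tnfrsf12a was lost without E18.5 Wfdc2GFP/GFP replicate 1 and without either P1.5 Wfdc2GFP/GFP library, and with the replicate 2 libraries alone at P1.5, with an adjusted p of at most 0.1575 over all alternatives and a log2 fold change of at least 3.73. Ltb and Tnfrsf25 lost their calls in the same settings, without either E18.5 Wfdc2+/+ library, with a pseudocount of 1 RPKM, with no filter and in voom on the recovered reads, and Tnfrsf25 also without E18.5 Wfdc2GFP/GFP replicate 2, with quantile normalization and with a prior without trend. Their log2 fold changes ran from 2.02 to 4.61 and from −2.73 to −0.90 over all alternatives.

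Tnfrsf9 went from 0.914 and 0.923 RPM to 4.92 and 14.3 RPM in Wfdc2GFP/GFP lungs, a log2 fold change of 3.19 (SE 0.72, adjusted p in limma = 0.0503). Tnfsf15, the TL1A gene, went from 4.19 and 1.09 RPM to 0.0432 and 0.273 RPM, a log2 fold change of −4.30 (SE 0.99, adjusted p in limma = 0.0512), though its P1.5 values are 1 and 8 reads. Both sit just past the threshold of 0.05 on the uncalled side, and with the replicate number as a block, which also separates the sexes, both were called (adjusted p in limma = 0.0215 for Tnfrsf9 and 0.0202 for Tnfsf15). Tnfrsf9 exceeded 0.05 RPKM only in P1.5 Wfdc2GFP/GFP libraries and Tnfsf15 only in E18.5 libraries, so each was tested through the stage where it was high. Tnfrsf19 had 103.9 and 56.7 RPM before and 15.6 and 23.8 RPM after birth (log2 fold change −2.00, SE 0.76, adjusted p in limma = 0.109), and Tnfrsf21 had 51.4 and 87.0 RPM before and 26.6 and 39.5 RPM after (log2 fold change −1.05, SE 0.42, adjusted p in limma = 0.122).

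Tnf had 0.0806 and 0.547 RPM at E18.5 and 0.561 and 4.85 RPM at P1.5 in Wfdc2GFP/GFP lungs. The upper E18.5 and lower P1.5 value nearly touched, and the log2 fold change was 2.97 (SE 1.29, adjusted p in limma = 0.142). Its receptors Tnfrsf1a and Tnfrsf1b had log2 fold changes of −0.23 (SE 0.49) and 0.99 (SE 0.61), and Ltbr had 0.82 (SE 0.39, adjusted p in limma = 0.168). That of Tnfrsf1a was 0.45 under median centring.

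**Figure D4:**
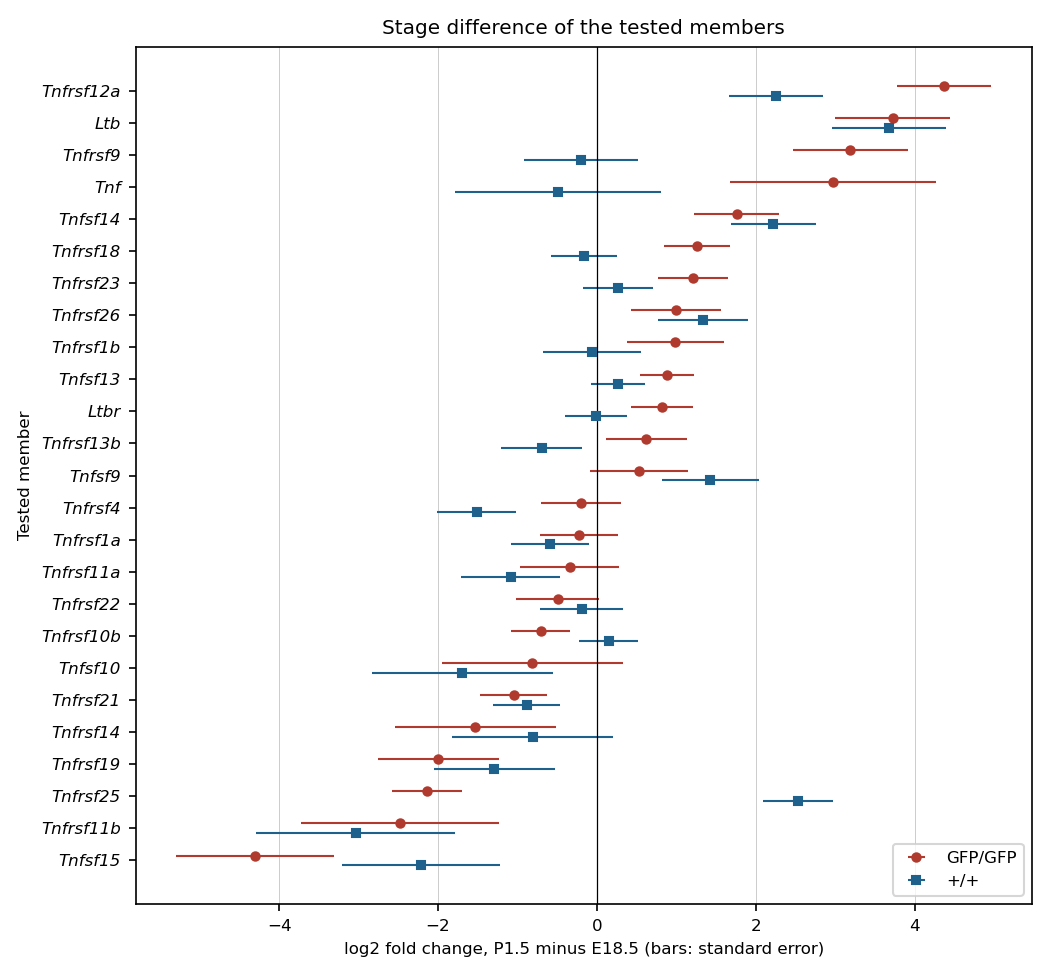
Log2 fold change of 25 tested members (the 2 with a mean under 10 reads left out), P1.5 minus E18.5, in Wfdc2GFP/GFP (red circles) and Wfdc2+/+ (blue squares) lungs, with SEs from limma. Ltb is at 3.72 and 3.67 in the 2 genotypes, Tnfrsf12a at 4.37 and 2.25, and Tnfrsf25 at −2.14 and 2.53.

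The remaining ligands were Tnfsf10, Tnfsf13, Tnfsf13b and Tnfsf14. Tnfsf10 had 24.6 to 38.5 RPM in the 4 E18.5 libraries, and at P1.5 it had 2.76 and 49.8 RPM in Wfdc2+/+ and 11.96 and 24.6 RPM in Wfdc2GFP/GFP, so that its P1.5 replicates were further apart than the stages. Tnfsf13 stayed between 8.17 and 20.4 RPM in all libraries. Tnfsf14 (LIGHT, a ligand of Ltbr and Tnfrsf14) had 0.232 to 0.479 RPM at E18.5 and 0.863 to 2.05 RPM at P1.5, every P1.5 library lying above every E18.5 library. Tnfsf13b (BAFF, the other B cell survival factor) had 92 reads in E18.5 Wfdc2GFP/GFP replicate 1 and 9 to 30 in the others.

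Of the remaining receptors, Tnfrsf13b (TACI, a receptor of APRIL and BAFF) had 2.76 to 9.57 RPM and Tnfrsf11a (RANK, which governs osteoclasts and lymph node formation) had 1.98 to 9.41 RPM. Both had their lowest level in P1.5 Wfdc2+/+ replicate 1. Tnfrsf10b, the mouse TRAIL receptor, had 5.95 and 7.60 RPM in E18.5 Wfdc2+/+ and 12.8 and 9.10 RPM in E18.5 Wfdc2GFP/GFP, and 6.53 to 7.71 RPM at P1.5. Tnfrsf14 (HVEM) had 4.95 RPM in E18.5 Wfdc2GFP/GFP replicate 1 and 0.376 to 1.80 RPM in the others. Tnfrsf22, Tnfrsf23 and Tnfrsf26, decoy or signalling-poor relatives of the TRAIL receptors that lie next to each other on chromosome 7 (143607685 to 143685872), had 1.15 to 3.60, 1.75 to 5.57 and 0.513 to 2.84 RPM, and reads could be split between such close copies.

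Low-read members, with a mean under 10 reads, were 4 ligands besides Lta and 3 receptors. Lta, which encodes soluble lymphotoxin alpha, had 1 and 0 reads in E18.5 Wfdc2+/+, 1 and 4 in E18.5 Wfdc2GFP/GFP, 5 and 7 in P1.5 Wfdc2+/+, and 4 and 33 in P1.5 Wfdc2GFP/GFP. The genotypes overlapped at P1.5 and 1 library held most of the reads. Tnfrsf13c (the BAFF receptor of B cells) had 3 reads in each E18.5 Wfdc2+/+ library, 13 and 3 in E18.5 Wfdc2GFP/GFP, 5 and 14 in P1.5 Wfdc2+/+ and 6 and 32 in P1.5 Wfdc2GFP/GFP. Tnfrsf8 (CD30) had 0 to 9 reads in a library, Tnfrsf17 (BCMA) 0 to 8, Tnfsf11 (RANKL) 0 to 9, Tnfsf8 (the CD30 ligand) 0 to 4 and Tnfsf18 (the GITR ligand) 0 to 4. Tnfsf4, the OX40 ligand, had 0 reads in all 8 libraries, where 3 reads would be 0.0806 to 0.154 RPM. These 6 genes were not tested, and their reads are too few at this depth to show a difference between groups. Lta and Tnfrsf13c, which were tested, lay higher at P1.5 than at E18.5 in Wfdc2+/+ lungs without overlap, at an unadjusted p in limma of 0.0118 (adjusted p = 0.309) and 0.0450 (adjusted p = 0.419). Of all genes tested, 27.4% lay in this order. The E18.5 Wfdc2+/+ libraries of both genes were at or under the floor of 3 reads, and 0 reads entered the fit as 0.9 read. These p-values thus rest on values near the floor.

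Genes that act with the superfamily were followed as fixed lists. Of 7 superfamily receptors under other symbols, 5 were tested and none passed an unadjusted p under 0.05 between genotypes at either stage. Relt had the smallest p at P1.5, with 83 and 77 reads in Wfdc2+/+ and 127 and 307 in Wfdc2GFP/GFP. The 4 ligands under other symbols were not tested: Eda, which shapes skin appendages, had 161 to 424 reads but a long span, and Cd40lg, Fasl and Cd70 had at most 5. Cd40, an activating receptor of B cells and macrophages, had 528 and 814 reads in P1.5 Wfdc2+/+ and 1376 and 1204 in P1.5 Wfdc2GFP/GFP (log2 fold change 0.63, SE 0.39).

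Of 16 adaptors and regulators of death and survival, 0 passed the adjusted threshold in limma at P1.5 and 1 was lower at an unadjusted p under 0.05, a share no larger than the 7.33% of all genes. This was Traf1, an NF-kB-induced adaptor, with 2063 and 1208 reads in Wfdc2+/+ and 637 and 540 reads in Wfdc2GFP/GFP (log2 fold change −1.77, SE 0.50, adjusted p in limma = 0.318). Traf6 was at 0.83 (SE 0.37, adjusted p in limma = 0.466). Of 16 tested kinases, subunits and inhibitors of NF-kB, 1 was higher at an unadjusted p under 0.05, beside 3.61% of all genes. A single gene of 16 is too few to set this list apart from all genes. It was Relb, the partner of the non-canonical pathway downstream of Ltbr and Fn14. Relb had 402 and 331 reads against 918 and 1244 (log2 fold change 1.21, SE 0.37, adjusted p in limma = 0.340). None of the 4 sheddase genes passed, with Adam17, the TNF convertase, at −0.14 (SE 0.47). At E18.5 no gene of these lists passed the unadjusted threshold in limma between genotypes.

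Genes that TNF is known to induce formed another list. Of the 17 listed genes, 15 were tested, 0 passed the adjusted threshold in limma, and 7 were higher in Wfdc2GFP/GFP at an unadjusted p under 0.05 (Cxcl2, Ccl2, Sod2, Cxcl1, Il6, Cxcl10 and Icam1) and 0 lower, beside 3.61% and 7.33% of all genes, with a median log2 fold change of 1.62 beside −0.20 over all genes. At E18.5, 0 were higher and 0 lower, and the median was −0.09. Cxcl2, a neutrophil chemokine, had 8 and 6 reads in Wfdc2+/+ at P1.5 and 74 and 266 in Wfdc2GFP/GFP. Ccl2, a monocyte chemokine, had 4 and 18 reads against 86 and 459. Sod2, the mitochondrial superoxide dismutase, had 1354 and 1118 reads against 3114 and 7408. Both Wfdc2GFP/GFP libraries were above both Wfdc2+/+ libraries for each of these 7 genes, beside 12.6% of all genes tested. The 7 were picked by their p in the same libraries, so this order adds no further support. Csf3, with 0 and 1 reads against 2 and 74, stood in the same order. Of the 15 genes, 12 had their highest level in P1.5 Wfdc2GFP/GFP replicate 2, the library in which Tnf also peaked. Many other stimuli induce these genes. Of 5 targets of the lymphotoxin receptor in lymphoid organs, Ccl19 and Ccl21a had 0 reads throughout, and Cxcl13, which guides B cells, was tested, with 3 and 25 reads in P1.5 Wfdc2+/+ and 35 and 122 in Wfdc2GFP/GFP (log2 fold change 2.57, SE 1.03, adjusted p in limma = 0.428).

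**Figure D5:**
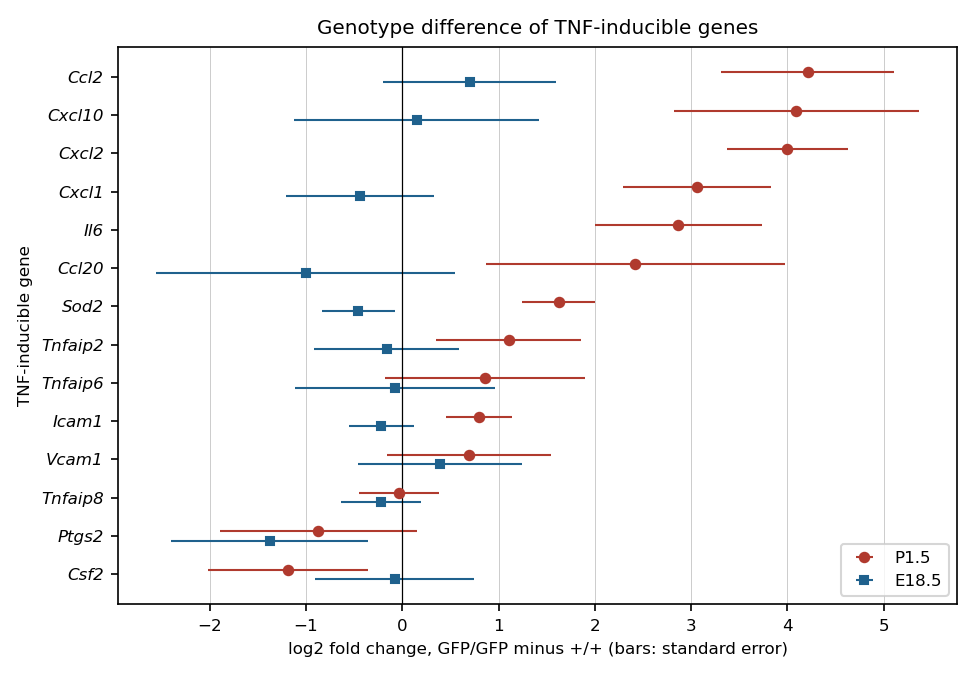
Log2 fold change of TNF-inducible genes, Wfdc2GFP/GFP minus Wfdc2+/+, at P1.5 (red circles) and E18.5 (blue squares), with SEs from limma. Points are left out where both libraries of a group had 3 reads or fewer. At P1.5 the chemokine gene Ccl2 is at 4.21 and Csf2 at −1.18, and at E18.5 the genes lie between −1.38 (Ptgs2) and 0.70 (Ccl2).

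Markers of other cells moved with stage. Summed neutrophil markers were 57.4 to 96.3 RPM in E18.5 libraries and 646 to 1798 RPM at P1.5, B cell markers 8.68 to 13.2 RPM and 16.7 to 53.8 RPM, and natural killer and innate lymphoid markers 0.941 to 2.59 RPM and 3.45 to 11.9 RPM. In each of these lists every P1.5 library lay above every E18.5 library, as it did for Ltb and Tnfsf14. Over all libraries, T cell markers (3.59 to 5.56 RPM at E18.5 and 3.87 to 12.2 RPM at P1.5) overlapped between the stages. So did macrophage and monocyte markers (121.5 to 169 RPM and 130 to 241 RPM). Within Wfdc2GFP/GFP lungs both of these lists lay higher at P1.5 without overlap. Thymocyte markers were 0.128 and 0.145 RPM at E18.5 and 0.875 and 1.08 RPM at P1.5 in Wfdc2+/+, without overlap, and 0.342 to 1.10 RPM in the Wfdc2GFP/GFP libraries. Mast cell markers had 71.1 to 187 RPM. Heart muscle markers ran from 65.0 to 483 RPM, with 118 and 463 RPM in the E18.5 Wfdc2GFP/GFP libraries. Endothelial markers had 1027 to 1729 RPM and mesenchymal markers 342 to 2071 RPM, lowest in P1.5 Wfdc2+/+ replicate 1, the library in which Tnfsf10, Tnfrsf11a, Tnfrsf11b and Tnfrsf19 were also lowest. The part of cell composition in these levels was not tested.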

How the data were processed

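Total lung RNA of 8 mouse libraries, made with a directional kit, was measured. Per the labels, reads were trimmed with Trim Galore 0.4.0 and mapped to mm10 with TopHat2 2.1.1, and the authors counted them in SeqMonk and deposited log2 RPKM, with no scaling between libraries beyond the total. The values show that lengths are whole gene spans, and a gene without reads carries 0.9 read. Reads and totals were recovered from the steps of each library: 100% of values up to 200 reads fell within 0.02 of a whole number. RPM uses these totals, and exonic lengths come from GENCODE M21.

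Samples were grouped from their labels. The 15627 genes averaging 0.05 RPKM or more entered limma 3.58.1 (R 4.3.3) with 4 group means, a trended prior, two-sided p-values and Benjamini-Hochberg adjustment, without a pseudocount. The study's methods state no test for these data. The script was tested on simulated data. Members, lists and tests were chosen with earlier results of these data known. Named genes are Tnf, Lta, Ltb, Tnfrsf1a, Tnfrsf1b and Ltbr, and, per contrast, up to 4 rises and 4 falls at an unadjusted p under 0.05 without overlap (for the difference between stages, by that p alone). For genes named by their rise or fall, the lack of overlap was thus required and adds no further support. Of each pathway list, up to 3 genes with the smallest p at P1.5 could be given values. Other members, and those with a mean under 10 reads, are given by level or reads. Genes outside this rule, such as Espn, Plekhg5, Camta1, Xist and Ddx3y, were picked with their values known. Each of these was varied in turn: pseudocount (0.1 and 1 RPKM), filter (none and 0.5 RPKM), scaling (median centring and quantile), libraries fitted (those of a contrast, or all but 1), prior (no trend), model (replicate block) and unit (voom on recovered reads) and, added after seeing the data, the replicate 2 libraries alone at P1.5. The floor of 3 reads covers counting error only, and SDs and SEs measure the spread between libraries.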

Additional observations from a re-analysis of the deposited data

Results flagged for a closer look

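The genotypes stood in opposite orders at the 2 stages, without overlap at either, in 3 members, beside 9.92% of all genes tested, which is a share near that of the members. For Tnfrsf25 the difference of the genotype contrasts, P1.5 minus E18.5, was −4.67 (limma adjusted p = 0.141), with 4 of 4 libraries on the respective side at each stage. It was 2.12 for Tnfrsf12a (limma adjusted p = 0.447), whose genotype differences were −0.75 at E18.5 and 1.37 at P1.5, and −0.86 for Tnfrsf10b (limma adjusted p = 0.637), with 0.68 and −0.18. None of these differences passed the adjusted threshold. Groups of 2 libraries are too small for a search for single outlying libraries.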

How the results depend on the processing

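No member was called between genotypes at P1.5, at E18.5, or in the difference of these contrasts, under any of the alternatives run. Between stages in Wfdc2+/+ the count was 0, and it was 1 with quantile normalization (Tnfrsf25), 4 with the replicate block (Lta, Ltb, Tnfrsf12a and Tnfrsf25) and 0 to 7 with 1 library left out. In Wfdc2GFP/GFP the count was 3, and it was 1 with a pseudocount of 1 RPKM, with no filter and in voom, 8 with median centring, 6 in the libraries of the contrast only, 7 with the replicate block (Tnf, Lta, Tnfrsf9 and Tnfsf15 beside the 3), 0 to 8 with 1 library left out, and 0 with the replicate 2 libraries alone at P1.5, which leaves 1 library per P1.5 group that is assumed to vary like the others. The causes were not tested, apart from fewer libraries where some were left out. Same-numbered libraries of both genotypes deviated together (r = 0.23 at E18.5 and 0.21 at P1.5), and those of both stages did not (r = −0.02 and −0.01), and the replicate number is not stated to mark litters. The replicate block changed no other count of members called.

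Among the named genes, signs turned only in contrasts in which the gene was not called. For Lta the difference of contrasts was 0.26 and 0.14 with pseudocounts of 0.1 and 1 RPKM and 0.58 with the replicate 2 libraries alone at P1.5. Ltb turned to 0.0136 at E18.5 with a pseudocount of 1, and between genotypes at P1.5 to 0.0037 and 0.026 with the pseudocounts, 0.20 with median centring, 0.017 with quantile normalization, 0.027 in voom and 0.84 with the replicate 2 libraries alone. With these libraries alone, the stage differences in Wfdc2+/+ were 0.17 for Ltbr, 0.80 for Tnf and 0.90 for Tnfrsf1b, the stage difference of Tnfrsf1a in Wfdc2GFP/GFP was 0.12, and the P1.5 genotype differences of Tnfrsf1a and Tnfrsf1b were −0.0753 and −0.0509. Median centring turned the stage differences of Ltbr and Tnfrsf1b in Wfdc2+/+ to 0.26 and 0.20 and that of Tnfrsf1a in Wfdc2GFP/GFP to 0.45. For Tnfrsf1b the pseudocounts gave 0.0060 and 0.045 and quantile normalization 0.22.

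With 1 library left out, genotype differences at P1.5 ran from −0.74 to 1.97 for Lta, −0.72 to 0.72 for Ltb, −0.42 to 0.76 for Tnfrsf1a and −0.21 to 1.72 for Tnfrsf1b. Those at E18.5 ran from −0.11 to 2.24 for Lta, −0.94 to 0.84 for Ltb, −0.81 to 0.25 for Ltbr, −2.55 to 0.21 for Tnf and −0.66 to 0.27 for Tnfrsf1a. The difference of contrasts ran from −1.80 to 0.90 for Lta, −0.84 to 0.94 for Ltb and −0.22 to 0.96 for Tnfrsf1a. Stage differences in Wfdc2+/+ ran from −0.19 to 0.17 for Ltbr, −1.77 to 0.80 for Tnf and −1.03 to 0.90 for Tnfrsf1b, and in Wfdc2GFP/GFP from −0.69 to 0.24 for Tnfrsf1a. The median over the members moved by more than the spread between replicates in 10 of 94 recomputed values, and it changed sign in every contrast under some alternative: from 0.37 to as low as −0.16 between genotypes at P1.5, from −0.05 to as high as 0.16 at E18.5, from 0.37 to as low as −0.17 in the difference of contrasts, from −0.16 to as high as 0.37 between stages in Wfdc2+/+ and from 0.62 to as low as −0.20 in Wfdc2GFP/GFP. Low-read members are limited by depth.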
